A study of Mus musculus with 4 samples.

Results

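Erythroid progenitors are the cells of the bone marrow that commit to making red blood cells. Their program is switched on by GATA1, TAL1 and KLF1, which bind erythroid promoters and enhancers and turn on the genes for iron uptake, heme synthesis, globin chains and the red cell membrane. Carbonic anhydrase 1, encoded by Car1, is made early on this path in the mouse, while globin chains accumulate later, in erythroblasts. The cells described here were chosen by their transcripts alone: at least 3 UMIs (unique molecular identifiers, each a counted transcript) of Klf1 and at least 10 of Car1, with fewer than 3 UMIs of the megakaryocyte gene Pf4, fewer than 5 of the neutrophil gene Elane and fewer than 3 of the B-cell gene Cd79a. They numbered 1424 of 11891 kept control cells and 574 of 12081 kept Mll3/4SI cells, 1998 of 23972 in all, and are called members below.

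The cells came from bone marrow of transplanted mice, 10 weeks after transplantation, and were sorted for CD45.2 and for the stem cell factor receptor Kit. Mll3 and Mll4 are histone H3 lysine 4 methyltransferases of enhancers, encoded by Kmt2c and Kmt2d. Of the 4 libraries, 1 each came from control Kit+ cells, Mll3/4SI Kit+ cells, Mll3/4 deleted Kit+ cells and control B220lo cells, prepared with the 10x Genomics 5′ kit, version 2. The Mll3/4SI library is called SI below, as the labels do not expand that ending. Strain, driver of the genetic change, time of its induction and number of donor or recipient mice are not given in the sources used here. With 1 library per group, SI and control differences have no replicate check and no test was made. Intervals of single genes and of shares are 95% and cover counting error only. The range given with a list median holds the medians of its genes' lower and upper bounds and is no 95% interval. The interval of the ratio of member shares was formed from the bounds of each share and is conservative.

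Depth of the members was close in both libraries. A control member held 2600 to 63015 UMIs with a median of 22000, and an SI member 2863 to 58716 with a median of 22352.5. The medians of detected genes were 4905.5 and 4941.5. Summed over members this gave 32143289 control and 13151010 SI UMIs. Control and SI had 214 cell barcodes in common. Of the control members 81, and of the SI members 29, had a barcode also found in another library. Immunoglobulin contigs were found in 0 of 1424 control and 0 of 574 SI members. This allows shares of up to 0.211% and 0.523% by a floor of 3 counts of the total (exact 95% limits 0.259% and 0.641%). The share over all kept cells was low too, at 36 of 11891 (0.303%) in control and 26 of 12081 (0.215%) in SI. The 4 Y-linked genes Ddx3y, Eif2s3y, Kdm5d and Uty summed to 0.0622 CPM (UMIs scaled to the same total in each library) in control and 0.0760 CPM in SI members, but to 139 CPM in the members of the deleted library, and Xist stood at 309, 309 and 8.77 CPM.

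The 5′ ends counted here lie beside the promoters, so promoters are shown for the genes on which the results turn. The sequences are RefSeq's for GRCm38.p6, the 250 bases before the start of each gene, read 5′ to 3′ on the gene's strand. The first set belongs to interferon-response genes, the list with the highest median ratio. Capitals mark GAAANNGAAA on either strand, the core of the site bound by interferon-stimulated transcription factors, with overlapping matches run together. Isg15 lies at chr4:156200819-156201068 (minus strand, 3 matches, 66 to 78 bases before the start), Ifit1 at chr19:34640639-34640888 (plus strand, 2 matches), Rsad2 at chr12:26456453-26456702 (minus strand, 1 match) and Bst2 at chr8:71537473-71537722 (minus strand, 2 matches).
Isg15: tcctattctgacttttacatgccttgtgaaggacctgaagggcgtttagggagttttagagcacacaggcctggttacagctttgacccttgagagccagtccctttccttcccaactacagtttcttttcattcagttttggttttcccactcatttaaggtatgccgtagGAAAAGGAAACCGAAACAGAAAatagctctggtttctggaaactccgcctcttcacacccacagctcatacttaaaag
Ifit1: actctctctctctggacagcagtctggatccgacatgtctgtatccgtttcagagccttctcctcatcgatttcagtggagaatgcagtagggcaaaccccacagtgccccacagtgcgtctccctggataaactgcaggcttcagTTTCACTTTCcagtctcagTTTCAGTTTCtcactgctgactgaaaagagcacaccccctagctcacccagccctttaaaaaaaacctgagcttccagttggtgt
Rsad2: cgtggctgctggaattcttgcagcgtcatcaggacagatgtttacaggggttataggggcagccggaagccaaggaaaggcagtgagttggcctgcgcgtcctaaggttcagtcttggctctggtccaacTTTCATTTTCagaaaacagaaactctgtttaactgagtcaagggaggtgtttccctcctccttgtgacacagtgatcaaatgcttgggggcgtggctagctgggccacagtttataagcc
Bst2: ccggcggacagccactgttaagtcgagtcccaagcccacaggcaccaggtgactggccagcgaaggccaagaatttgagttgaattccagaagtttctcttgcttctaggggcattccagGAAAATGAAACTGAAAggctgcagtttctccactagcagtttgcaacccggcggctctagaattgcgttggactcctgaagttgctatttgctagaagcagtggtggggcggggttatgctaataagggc
Of the 16 interferon-response genes 13 had a promoter in the RefSeq table, and 7 of these held the motif (Bst2, Cxcl10, Gbp2, Ifit1, Ifit3, Isg15 and Rsad2), against 2.98% of all 32851 promoters of that length. A match is a description of the letters and not evidence of binding.

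The next set holds Klf1, which with Car1 chose the cells, and the pair of adult beta-globin genes, one of which had the second highest ratio of all. The promoter of Car1 was not among the RefSeq promoters used here. In Klf1 (chr8:84901732-84901981, plus strand) capitals mark GATAA, the GATA factor motif, found on either strand in 22.6% of all promoters. In Hbb-bs (chr7:103827929-103828178, minus strand) and Hbb-bt (chr7:103813924-103814173, minus strand) capitals mark CCAAT and TATAA on either strand, the CCAAT and TATA boxes, which 33.8% and 22.8% of all promoters hold.
Klf1: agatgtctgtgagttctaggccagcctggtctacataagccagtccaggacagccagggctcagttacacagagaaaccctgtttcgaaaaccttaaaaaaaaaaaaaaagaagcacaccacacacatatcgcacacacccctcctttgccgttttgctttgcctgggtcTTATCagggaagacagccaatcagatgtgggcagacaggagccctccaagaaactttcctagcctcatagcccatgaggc
Hbb-bs: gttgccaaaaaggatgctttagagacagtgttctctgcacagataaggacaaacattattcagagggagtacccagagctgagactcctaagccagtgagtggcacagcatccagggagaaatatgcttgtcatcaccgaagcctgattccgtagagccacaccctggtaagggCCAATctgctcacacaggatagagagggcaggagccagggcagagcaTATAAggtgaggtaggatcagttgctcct
Hbb-bt: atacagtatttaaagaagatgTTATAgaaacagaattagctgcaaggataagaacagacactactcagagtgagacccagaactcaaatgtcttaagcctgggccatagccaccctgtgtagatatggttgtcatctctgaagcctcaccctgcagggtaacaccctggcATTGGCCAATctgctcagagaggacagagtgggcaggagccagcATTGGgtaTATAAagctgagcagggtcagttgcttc
Both beta-globin promoters held CCAAT on one strand or the other, 76 bases before the start in Hbb-bs and 80, 75 and 36 bases before it in Hbb-bt, and both held a TATA box.

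The first comparison asked how many cells of each library passed the gate. Of kept control cells 12% (11.4 to 12.6) were members, and of kept SI cells 4.75% (4.38 to 5.15), so the control share was 2.52 times that of SI (log2 ratio of SI to control -1.33, interval -1.52 to -1.15). The SI library held many more cells that passed a mast cell gate (at least 10 UMIs of the mast cell protease gene Cpa3 and 3 of the IgE receptor gene Ms4a2), at 6.0% of kept cells against 0.387%. With those cells left out of the denominator the shares were 12% and 5.05% and the log2 ratio was -1.25. Among cells with Klf1 that met the same exclusions, members were 93.2% of 1528 control and 86.2% of 666 SI cells, and the remaining 104 and 92 cells had fewer than 10 Car1 UMIs. Fewer such cells, more of the others and a shift in what the Kit sort passes cannot be told apart in these shares.

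The gate had edges on both genes. At exactly 3 Klf1 UMIs stood 257 control and 106 SI members, and 306 control and 92 SI cells met every other limit with 2. A further 531 control and 166 SI cells met every other limit with 1 or 0 Klf1 UMIs. Car1 counts of 10 to 12 were found in 20 and 26 members, and 15 and 16 cells met every other limit with 7 to 9. Before the exclusions 1732 control and 702 SI cells passed on Klf1 and Car1, and the Elane limit took out 288 and 121 of them, the Pf4 limit 37 and 9, and the Cd79a limit 3 and 0. Members of the 2 libraries had the same median of 6 Klf1 UMIs. Car1 ran from 10 to 363 UMIs with a median of 91 in control and from 10 to 381 with a median of 87 in SI. By the same gate the deleted library gave 33 of 14915 cells, or 0.221% (0.152 to 0.311), and the control B220lo library 15 of 16329. Of these 15 cells 3 carried an immunoglobulin contig, against 59.8% of all kept cells of that library.

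The label was set against erythroid markers that the gate did not use. Thinned to 5000 UMIs a cell, Gata1 was found in 66.3% of 1419 control and 65.9% of 569 SI members, against 3.77% and 2.76% of Elane-high cells (at least 5 UMIs of Elane, fewer than 3 of Klf1), whose median depths were 14457 and 15834 UMIs. The erythropoietin receptor gene Epor was found in 34.5% and 32.2% of members and in 0.628% and 0.666% of Elane-high cells, and Ermap, a red cell surface protein gene, in 66.1% and 65.9% against 1.75% and 0.499%. Among genes of later stages, the anion exchanger gene Slc4a1 had 0 UMIs in both. The alpha-globin gene Hba-a1 stood at 2.46 CPM in control and 2.28 CPM in SI members. A list of late erythroblast genes summed to 422 and 499 CPM in members, against 302 and 324 CPM in Elane-high cells. The early erythroid markers were thus present, while of the late genes Slc4a1 and Hba-a1 were at or near 0 and others were counted. The Ahsp gene of the globin list was not among the symbols of the files.

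Most genes were counted at like levels in SI and control members. Of 9239 genes with at least 100 UMIs in the library of higher CPM, 96.2% lay within 1.5-fold, and the median log2 ratio (SI over control, 1 CPM added to each) was -0.00. SI was at least 2-fold higher for 101 genes (1.09%) and at least 2-fold lower for 42 (0.455%). The smaller SI total asks for a higher CPM to reach 100 UMIs, so the 2 counts are not on the same footing. Of the 101 higher genes 98 could be compared in Elane-high cells of the same libraries and 51 were past 2-fold there too, where 1.83% of all genes were. Of the 42 lower genes 32 could be compared there and 18 were past 2-fold, where 0.657% of all genes were. In Pf4-high cells (at least 3 UMIs of Pf4) 58 of 88 higher and 9 of 13 lower genes were past 2-fold, against 2.05% and 1.25% of all genes there. In the 104 control and 92 SI Car1-low cells, with few genes deep enough to compare, 12 of 18 and 3 of 3 were, against 0.464% and 0.27%.

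**Figure D1:**
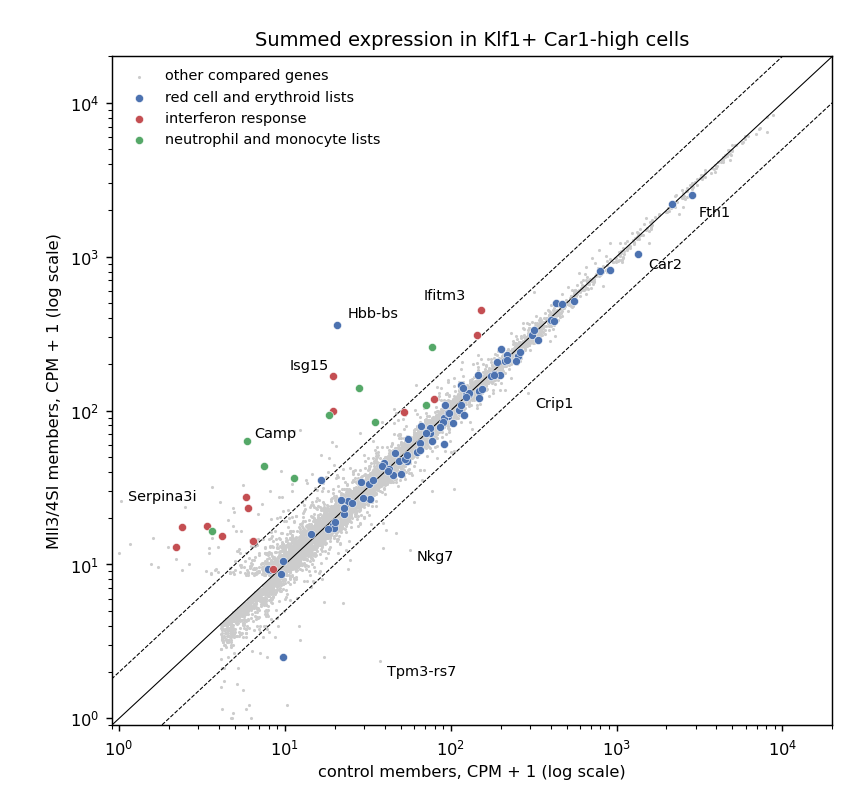
Summed CPM + 1 of each compared gene in control (x) and SI (y) members, both axes on a log scale, with list genes in colour and dashed lines at 2-fold. Most points lie on the diagonal, and interferon-response genes (red) and neutrophil and monocyte genes (green) lie above it.

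Transcription factors of the erythroid program were counted at levels well within 2-fold in both libraries. The 18 erythroid regulators other than Klf1, which the gate used, ranged from -0.28 to 0.33 with a median log2 ratio of 0.02 (-0.08 to 0.12), and 0 were past 2-fold. Gata1 (chromosome X, 7959260 to 7978071), the master regulator, was counted at 217 CPM (212 to 222) in control and 227 CPM (219 to 235) in SI members. Tal1, its DNA-binding partner, stood at 95.4 and 95.5 CPM. Gfi1b, a repressor of the lineage, stood at 189 and 206 CPM. Nfe2, a regulator of globin genes, had the highest ratio of the list, at 115 and 145 CPM, and the Kruppel-like repressor Klf3 the lowest, at 76.6 and 62.7 CPM. Counting intervals of Tal1 overlapped and those of Gfi1b, Nfe2 and Klf3 did not.

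Genes of earlier progenitors were slightly higher in SI members. Of the 12 on the list 9 lay above 0, the median was 0.24 (0.09 to 0.43) and 0 were past 2-fold. In Car1-low cells the median went the other way, at -0.18, and it was 0.17 in Elane-high and 0.18 in Pf4-high cells. Myb, which keeps progenitors dividing, stood at 346 CPM in control and 401 CPM in SI members, Gata2 at 59.8 and 66.2 CPM, and Kit, the gene of the sorted receptor, at 177 and 187 CPM. Cd34, a surface marker of stem and progenitor cells, went from 15.7 to 29.1 CPM. Spi1, the gene of the myeloid factor PU.1, stood at 21.5 and 35.3 CPM. The marker list of stem and multipotent cells summed to 159 and 261 CPM, with 1 of 7 genes past 2-fold higher (again 1.09% of all were), the adhesion receptor gene Adgrl4 (13.6 and 37.8 CPM, log2 1.41). Angpt1 of that list, a growth factor gene, stood at 86.8 and 139 CPM. Cd34, Spi1 and Adgrl4 are also transcripts of Elane-high cells: thinned, they were found in 67.2%, 74.5% and 46.6% of control Elane-high cells and in 5.29%, 10.2% and 3.66% of control members. Neutrophil-list UMIs were more frequent in SI than in control members (294 and 876 CPM, Elane included). Scrublet doublet scores over 0.25 were too (4.56% of control and 8.36% of SI members). Over all kept cells such scores went the other way, with 840 of 11891 in control and 580 of 12081 in SI. Without the members of high doublet score the medians of the early progenitor and stem lists were 0.16 and 0.33, and without those holding 20 or more neutrophil-list UMIs 0.15 and 0.37, against 0.24 and 0.39 over all members.

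Erythropoietin drives survival and growth of these cells through its receptor, JAK2 and STAT5. Epor stood at 92.5 CPM in control and 89.0 CPM in SI members, Jak2 at 37.5 and 36.6 CPM, and Stat5b at 74.6 and 76.6 CPM. The list had a median of 0.05 (-0.11 to 0.16) over 15 of 17 genes. Of its 11 genes with 100 UMIs 1 was past 2-fold lower (0.455% of all compared genes were), Trib3, a stress-induced pseudokinase gene. It had 134 UMIs in control and 9 in SI (4.17 and 0.684 CPM, log2 -1.62). Trib3 was lower in Elane-high and Pf4-high cells too, with log2 ratios of -1.40 and -1.91. Csf2rb, the shared beta chain of the IL-3 and GM-CSF receptors, rested on 41 and 59 UMIs, at 1.28 and 4.49 CPM.

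Genes of iron uptake and heme synthesis were mostly somewhat lower in SI members, all by less than 2-fold. In the iron list 14 of 19 genes lay below 0, with a median of -0.06 (-0.19 to 0.08) and a summed level of 4534 CPM in control and 4122 CPM in SI. The transferrin receptor gene Tfrc, the gateway for iron, had the lowest ratio, at 90.0 CPM (86.7 to 93.3) and 59.5 CPM (55.4 to 63.9), log2 -0.59. The ferritin heavy chain gene Fth1 stood at 2834 and 2514 CPM. In the heme list 12 of 15 genes lay below 0, with a median of -0.12 (-0.30 to 0.02). Alad, the second enzyme of the pathway, stood at 310 and 310 CPM. Alas2, the erythroid form of the first enzyme, had 54 UMIs in control and 12 in SI, found in 3.65% and 1.74% of members without thinning. These raw counts come from unequal totals of 32143289 and 13151010 UMIs.

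Among carbonic anhydrases, Car2, which is made in red cells beside Car1, stood at 1343 CPM (1331 to 1356) in control and 1040 CPM (1023 to 1058) in SI members (log2 -0.37). It was detected in 99.7% and 97.0% of members. Car3 (chromosome 3, 14863512 to 14872523), the muscle form, was past 2-fold lower, with 281 UMIs in 16.7% of control members and 20 UMIs in 3.31% of SI members (8.74 and 1.52 CPM, log2 -1.95). Car3 was lower by 3.48 on the log2 scale in Elane-high cells too, a ratio seen outside the members.

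**Figure D2:**
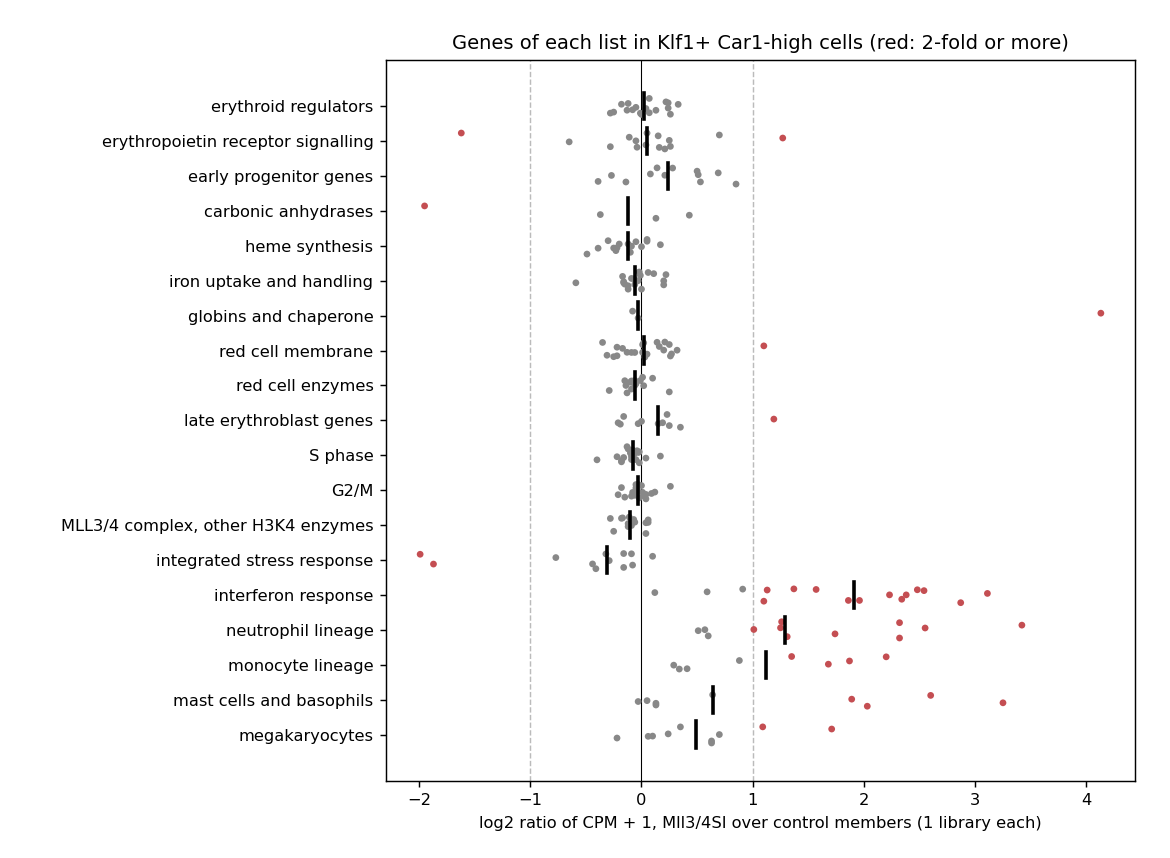
Log2 ratio of CPM + 1, SI over control members, for each gene with at least 20 UMIs (points), by list, with the list's median as a black bar, dashed lines at 2-fold and genes past it in red. Erythroid, heme, iron and cell cycle lists centre near 0, and interferon-response genes all lie above 0.

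Globin genes were low in nearly all cells, with an exception in SI. Hbb-bs (chromosome 7, 103826534 to 103828096), the adult beta-globin s chain, had 632 UMIs in control and 4754 in SI members, 19.7 CPM (18.2 to 21.3) against 361 CPM (351 to 372), log2 4.13. The share of members with any Hbb-bs UMI was 16.6% in control and 14.8% in SI, so the SI level was set by a few cells: 10 cells held 83.7% of the SI UMIs, against 35.3% in control. The highest SI cell held 1253 UMIs of Hbb-bs, 5 of its neighbour Hbb-bt and 0 of Hba-a1, and the next held 729, 1 and 0. In the highest control cell these counts were 59, 3 and 2, and in the next 29, 45 and 1. Hbb-bt itself (chromosome 7, 103812524 to 103813996) stood at 24.5 CPM in control and 24.0 CPM in SI. Without the 1% of members highest in Hbb-bs the log2 ratio was 3.08. In Car1-low cells, Elane-high cells and Pf4-high cells Hbb-bs was lower in SI, with log2 ratios of -1.71, -3.85 and -2.23. The Elane-high ratio rests on few cells too: 3.19% of control and 2.05% of SI cells held an Hbb-bs UMI. Thinned, the highest control Elane-high cell held 306 UMIs of the globin list while 97.2% held 0. The beta-globin genes are close copies, as are Hba-a1 and Hba-a2, so the split of reads between copies is uncertain.

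Red cell membrane genes had a median of 0.02 (-0.16 to 0.15) over 23 genes. The water channel gene Aqp1 stood at 201 and 251 CPM, the Rh antigen gene Rhd at 119 and 93.1 CPM, and the ankyrin gene Ank1 at 102 and 82.0 CPM.

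Red cell enzymes had a median of -0.06 and 0 of 15 past 2-fold. Blvrb, biliverdin reductase B, stood at 796 and 800 CPM, and the peroxide-removing Prdx2 at 909 and 819 CPM. Late erythroblast genes had a median of 0.15, and 1 of the 8 with 100 UMIs was past 2-fold higher (1.09% of all compared genes were): Ube2l6, which encodes an enzyme that attaches the interferon-induced modifier ISG15, at 44.2 CPM (42.0 to 46.6) and 102 CPM (96.9 to 108), log2 1.19. Ube2l6 was also above 0 in Elane-high cells, at 0.56.

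Proliferation genes were close in both. The S phase list had a median of -0.08 with 18 of 20 genes below 0, and the G2/M list a median of -0.03 with 13 of 20 below 0, and 0 of these 40 passed 2-fold. Rrm2, a ribonucleotide reductase subunit gene, had the lowest S phase ratio, at 143 and 108 CPM. Mki67, the gene of the Ki-67 antigen, stood at 417 and 359 CPM. Among cyclins and their inhibitors, with a median of -0.02, Ccnd1 stood at 6.0 and 2.81 CPM and Cdkn1a at 2.99 and 4.87 CPM. Survival and death genes had a median of -0.02 and 0 of 12 past 2-fold.

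The targeted genes were counted at levels with overlapping intervals in both. Kmt2c stood at 47.4 CPM (45.0 to 49.8) in control and 48.8 CPM (45.1 to 52.7) in SI members, and Kmt2d at 19.5 CPM (18.0 to 21.1) and 20.4 CPM (18.0 to 23.0). Kdm6a, a demethylase of the same complex, stood at 40.9 and 37.9 CPM. The list of that complex and related methyltransferases had a median of -0.10 (-0.24 to 0.06) and 0 of 14 past 2-fold. The deleted library's 33 members had 36.2 CPM (24.9 to 50.8) of Kmt2c and 19.7 CPM (11.7 to 31.2) of Kmt2d. Counts from the 5′ end do not show a change further along a gene, so they check no label.

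Interferon-response genes had the highest median of the lists. These genes are switched on by type I and II interferons and encode antiviral proteins. All 16 had a log2 ratio above 0, 11 of the 14 with 100 UMIs were past 2-fold (1.09% of all compared genes were, in that direction), and the median was 1.91 (1.64 to 2.18). Summed over the list the level was 492 CPM in control, 1375 CPM in SI and 467 CPM in deleted members. Isg15 (chromosome 4, 156199424 to 156200818), a ubiquitin-like modifier, stood at 18.4 CPM (16.9 to 19.9) in control, 166 CPM (159 to 173) in SI and 46.0 CPM (33.2 to 62.2) in deleted members. Irf7, the factor that amplifies the response, stood at 18.6 CPM in control and 98.0 CPM in SI, 5.27-fold higher (4.78 to 5.81).

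Antiviral effectors followed the same direction. Ifit1, which binds foreign RNA, had 45 control and 218 SI UMIs (1.40 and 16.6 CPM, log2 2.87). The radical enzyme gene Rsad2 stood at 2.40 and 16.7 CPM, and Oasl2, of the oligoadenylate synthetase family, at 4.82 and 26.3 CPM. Ifitm3, which blocks viral entry and was the most abundant of the list, stood at 151 CPM (147 to 156) and 451 CPM (440 to 463). Bst2, a tether of virus particles, stood at 143 and 307 CPM. Ifit2 stood at 7.53 and 8.29 CPM, with overlapping intervals. Cxcl10, a chemokine gene, had 11 and 85 UMIs, and 10 cells held 100% of the SI count.

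The interferon difference was spread over cells and over Car1 levels. Thinned to 5000 UMIs, a control member held 0 to 44 UMIs of the list with a median of 2, and an SI member 0 to 86 with a median of 5. None were found in 16.5% of control and 5.45% of SI members. Isg15 was detected in 22.3% of control and 62.0% of SI members without thinning, and in 7.47% and 33.4% with it. The groups overlapped over most of their range, and at 20 or more unthinned UMIs stood 11.2% (9.64 to 13) of control and 54.5% (50.4 to 58.7) of SI members. Other cells of the same libraries showed the direction too, with list medians of 1.58 in Car1-low, 1.38 in Elane-high and 1.67 in Pf4-high cells.

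**Figure D3:**
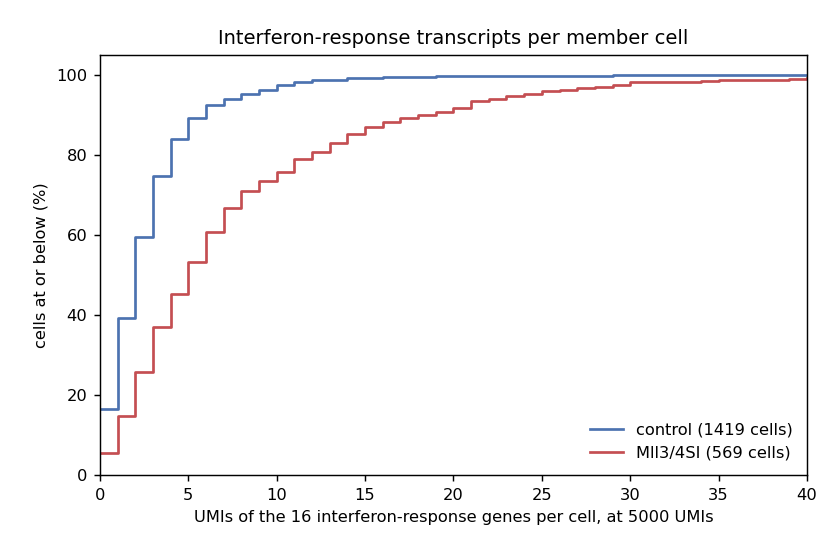
Cumulative share of members (y, %) at or below each number of interferon-response UMIs per cell (x), with each cell thinned to 5000 UMIs, for 1419 control and 569 SI members. The SI curve lies to the right, with medians of 5 against 2 UMIs.

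Other stress programs lay closer to 0. Genes of the integrated stress response, which cells switch on when translation initiation is curbed by amino acid or heme shortage, lay below 0 in 11 of 12 cases, with a median of -0.31 (-0.45 to -0.13) and 2 of 12 past 2-fold lower (0.455% of all compared genes were). Nupr1 (chromosome 7, 126623249 to 126630861), a stress-induced chromatin protein gene, had 686 control and 61 SI UMIs (21.3 and 4.64 CPM, log2 -1.99). Chac1, a glutathione-degrading enzyme gene, had 103 and 2 UMIs (3.20 and 0.152 CPM). Asns, asparagine synthetase, stood at 200 CPM (195 to 205) and 150 CPM (143 to 157), the serine pathway gene Psat1 at 169 and 124 CPM, and Atf4, the factor that drives the program, at 103 and 82.4 CPM. Nupr1 and Chac1 were lower in Elane-high cells as well, with log2 ratios of -1.58 and -1.83. The medians of the list were -0.35 in Car1-low, -0.26 in Elane-high and -0.50 in Pf4-high cells. Ddit3 was at 22.9 and 21.5 CPM.

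Heat shock genes had a median of -0.05, with 2 of 11 past 2-fold higher (1.09% of all compared genes were), the inducible pair Hspa1a (5.63 and 13.7 CPM) and Hspa1b (12.6 and 32.9 CPM). In Elane-high cells their ratios were higher still, at 2.53 and 2.49 on the log2 scale. Hspa8, the constitutive form, stood at 2513 and 2089 CPM. Hspa1a and Hspa1b are near-identical copies and their split is uncertain. Metallothioneins were lower, Mt1 at 936 and 800 CPM and Mt2 at 230 and 162 CPM.

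Neutrophil, monocyte, mast cell and megakaryocyte lists summed to a higher level in SI members, and T and NK and macrophage lists to a lower one. The neutrophil list, without Elane, had a median of 1.29 (1.03 to 1.64), and 6 of the 7 genes with 100 UMIs were past 2-fold higher (1.09% of all compared genes were). With Elane, which the gate limited, the list summed to 294 CPM in control and 876 CPM in SI members. Mpo, myeloperoxidase, stood at 76.1 and 257 CPM, and Camp, a granule peptide gene, at 4.92 and 62.4 CPM. In SI 10 cells held 56.2% of Mpo and 99% of Camp UMIs. Members with at least 20 UMIs of the list without Elane were 45 in control (3.16%) and 37 in SI (6.45%). They held 57.1% and 80.2% of its UMIs. Left out, they took the list's median to 0.53. A Scrublet doublet score over 0.25 was given to 65 control (4.56%) and 48 SI (8.36%) members. Over all kept cells it was given to 840 of 11891 in control and 580 of 12081 in SI, the other way. Without the members of high score the list's median was 0.11. The log2 ratios of Camp and the lysozyme gene Lyz2 were then 0.37 and 0.34.

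The monocyte list had a median of 1.12 with 2 of 2 comparable genes past 2-fold higher, again against 1.09% of all, and 0.04 without the members of high doublet score. The mast cell and basophil list had a median of 0.64 (0.23 to 1.04) over 9 genes, and 4 of the 6 with 100 UMIs were past 2-fold higher, against the same 1.09%. Fcer1a, the IgE receptor alpha chain, had 48 control and 299 SI UMIs (1.49 and 22.7 CPM), and Cpa3 365 and 971 (11.4 and 73.8 CPM). Members with at least 20 UMIs of that list were 7 in control (0.492%) and 26 in SI (4.53%), and they held 13.7% and 59.4% of its UMIs. The granule protease genes Mcpt8 and Prss34 had 12 and 2 UMIs in SI members and Tpsab1 had 0. The megakaryocyte list summed to 53.2 and 90.6 CPM, with 1 of 3 comparable genes past 2-fold, Plek (4.04 and 15.5 CPM), and was less concentrated, as 10 cells held 9.29% and 17.6% of its UMIs. The T and NK list, in which Nkg7 alone could be given a ratio, summed to 56.2 and 11.6 CPM. Nkg7 was lower in SI in Car1-low, Elane-high and Pf4-high cells too, with log2 ratios of -1.96, -1.56 and -1.71. Thinned, it was found in 89.3% of control Elane-high cells and 22.9% of control members, so it marks more than T and NK cells here. Macrophage genes summed to 7.12 and 3.73 CPM and the B-lineage list to 7.19 and 9.20 CPM, with Ebf1, Rag1 and Ms4a1 at 0 in both. What part of these values came from doublets, from free RNA or from the cells' own transcripts was not tested.

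**Figure D4:**
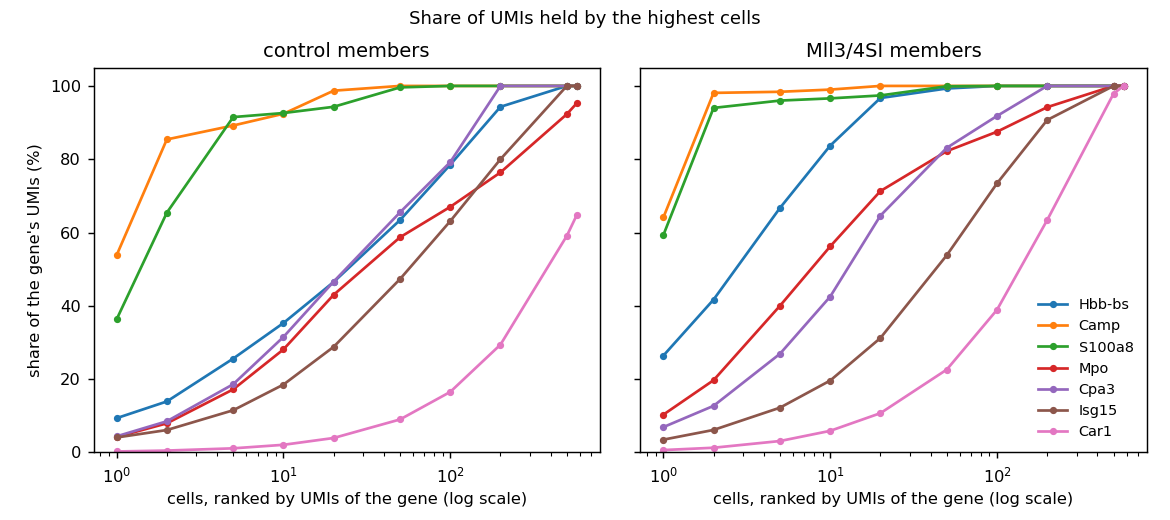
Share of a gene's UMIs (y, %) held by the given number of its highest cells (x, log scale) in control (left) and SI (right) members. Camp and S100a8 lie in a few cells of both libraries, Hbb-bs in a few SI cells, and Isg15 and Car1 over many cells.

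Single genes with the highest ratios came from several groups. Serpina3i (chromosome 12, 104263122 to 104269372), a serine protease inhibitor gene of a family of close copies, had 1 UMI in control and 328 in SI members, found in 20.6% of SI members, a fold of 802 (143 to 31760). The histone H4 gene Hist1h4m, also one of many near-identical copies, had 5 and 166 UMIs, in 0.351% and 23.0% of members. Both were also far higher in SI Elane-high cells, with log2 ratios of 6.01 and 3.09. Gm2a, a ganglioside activator gene, stood at 1.37 and 16.5 CPM, and Zbtb46, a zinc finger repressor gene, at 0.560 and 9.05 CPM. The log2 ratio of Zbtb46 was 2.69 in members. In Car1-low cells it had 0 control and 6 SI UMIs, and in Elane-high cells 12 and 18, too few to set a ratio beside that of the members. Ifi27l2a (log2 3.13) and Oas1g (log2 2.73), both interferon-induced, and Lyz2 (log2 2.70), Fcer1a (log2 3.25), Camp and Hbb-bs completed the 12 highest with Isg15 and Ifit1.

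The lowest ratio was that of Tpm3-rs7 (chromosome 14, 113314608 to 113316754), annotated as a tropomyosin-related sequence, with 1181 UMIs in 55.3% of control members and 18 UMIs in 3.14% of SI members (36.7 and 1.37 CPM, log2 -3.99). Its log2 ratio was -4.13 in Elane-high cells. The zinc finger gene Zfp976 followed, with 298 and 3 UMIs, and was at -2.69 in Elane-high cells. Hoxb2 and its antisense neighbour Hoxb3os had 156 and 124 UMIs in control and 2 and 1 in SI. Their loci overlap on opposite strands, and how well their reads were told apart was not tested. Tpm3-rs7, Zfp976, Hoxb2, Hoxb3os, Gdpd3, Nkg7, Nupr1 and Car3 were past a log2 of -1 in Car1-low, Elane-high and Pf4-high cells too. Serpina3i, Hist1h4m, Ifi27l2a, Isg15, Ifit1 and Oas1g were past 1 in the same cells. Tpm3-rs7, Zfp976, Hoxb2, Gdpd3, Car3 and Serpina3i had been named for the whole SI library in an earlier look at these data. Their recurrence was thus known beforehand and is no independent support. Strain is not given in the sources used here, and with 1 library per group a difference between donor mice and one due to the genotype cannot be told apart. Nkg7, a granule membrane protein gene, stood at 56.0 CPM (53.4 to 58.6) and 11.4 CPM (9.65 to 13.4), while the other 6 genes of the T and NK list had 0 to 5 UMIs in each library (Cd3g and Gzma 0 in both, Cd3d 1 and 2, Cd3e 0 and 1, Klrd1 3 and 0, Ncr1 5 and 0).

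Several of the lowest had few UMIs in the other cells. Serpinb9b, a protease inhibitor gene, had 169 UMIs in 10.2% of control members and 0 in SI members, at least 23.0-fold lower with a floor of 3 counts in the SI sum, and C2cd4a had 119 and 0, at least 16.2-fold lower. Serpinb9b had 22 control and 0 SI UMIs in Elane-high cells, 6 and 0 in Car1-low cells and 7 and 0 in Pf4-high cells, so it was at 0 in all of these SI cells. C2cd4a had 3 and 0 UMIs in Elane-high cells and 0 in Car1-low and Pf4-high cells. Podxl, a sialomucin gene, stood at 11.4 and 2.21 CPM in members (log2 -1.95) and had 34 and 18 UMIs in Elane-high cells. Arhgdig stood at 4.60 and 0.532 CPM in members and had 39 and 44 UMIs in Elane-high cells. At such counts the added 1 CPM draws a log2 ratio towards 0. Whether these ratios differ between the cell types cannot be tested with 1 library per group. Gdpd3 (5.10 and 0.228 CPM), Nupr1 and Car3 completed the 12 lowest. Gdpd3 was well counted in Elane-high cells, with 1148 control and 326 SI UMIs, and was lower there too (log2 -1.59).

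Among genes chosen after their values were seen, the LIM protein gene Crip1 was the most abundant of those past 2-fold lower. Crip1 stood at 292 CPM (286 to 298) in control, 129 CPM (123 to 136) in SI and 321 CPM (285 to 360) in deleted members. It was found in 97.9% of control and 84.1% of SI members, and its log2 ratio was -1.17 in members, -1.10 in Car1-low cells, -0.65 in Pf4-high cells, -0.67 in cells of the mast cell gate and 0.07 in Elane-high cells. Its neighbour Crip2 stood at 58.8 and 24.3 CPM. The Kruppel-like factor gene Klf9 stood at 39.5 and 15.7 CPM, the membrane protease gene Hpn at 45.8 and 15.1 CPM, and the carboxypeptidase gene Cpd at 16.3 and 4.71 CPM. The log2 ratio of Cpd was -0.25 in Elane-high cells, -0.18 in Pf4-high cells and -0.11 in Car1-low cells, where it had 18 UMIs in each library.

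The members were then split by Car1 count, a description only, since Car1 chose them. The groups of 10 to 29, 30 to 99 and at least 100 Car1 UMIs held 148, 649 and 627 control and 89, 231 and 254 SI members. The lowest group was 10.4% (8.86 to 12.1) of the control members and 15.5% (12.6 to 18.7) of the SI ones. Depth was higher at higher Car1, from a median of 11344 to 26853 UMIs in control and from 11004 to 27493 in SI, and its part in what follows was not tested. Heme synthesis genes were higher at higher Car1 in both, from 1224 to 1882 CPM in control and from 1030 to 1838 CPM in SI. Iron genes went from 3452 to 4898 CPM and from 2807 to 4578 CPM. Early progenitor genes went the other way, from 1058 to 588 CPM and from 1375 to 643 CPM. By the Car1 share of a cell's UMIs, lowest against highest of 3 equal groups, heme genes were nearly level in control (1684 and 1770 CPM) and went from 1392 to 1798 CPM in SI, iron genes went from 4449 to 4683 CPM and from 3645 to 4533 CPM, and early progenitor genes from 780 to 593 CPM and from 1039 to 633 CPM.

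**Figure D5:**
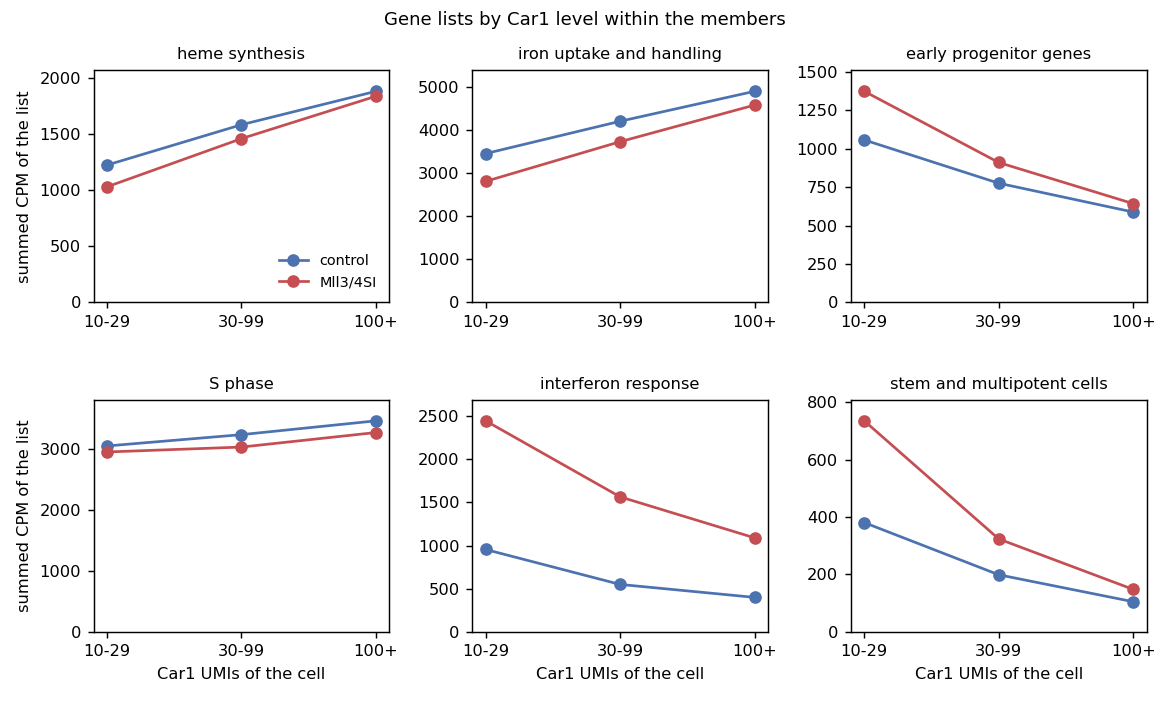
Summed CPM of 6 gene lists (y) by Car1 UMIs of the cell (x) in control and SI members. Heme, iron and S phase lists are higher and early progenitor, interferon and stem lists lower at high Car1 in both libraries, while by Car1 share the S phase list was level in control (3381 and 3378 CPM).

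The SI to control difference of the heme, iron and early progenitor lists was smaller at high Car1. That of the neutrophil list was too, at 3.53, 3.13 and 2.70 times control from low to high Car1. Its part in the other differences was not tested. For heme synthesis the SI level was 0.842 times that of control at 10 to 29 Car1 UMIs, 0.922 times at 30 to 99 and 0.977 times at 100 or more. The same values were 0.813, 0.887 and 0.935 for iron genes and 1.30, 1.17 and 1.09 for early progenitor genes. By Car1 share, lowest and highest group, they were 0.827 and 1.02 for heme, 0.819 and 0.968 for iron and 1.33 and 1.07 for early progenitor genes. The interferon list behaved otherwise, at 2.56, 2.85 and 2.73 times control, while its level was lower at higher Car1, from 954 to 399 CPM in control and from 2445 to 1089 CPM in SI. With SI members weighted to the control's Car1 groups, 96 genes were past 2-fold higher and 42 lower.

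Of 8083 genes with at least 100 UMIs in members of each library, 20 were past 2-fold higher and 285 past 2-fold lower at high Car1 in both. With members split instead into 3 equal groups by the Car1 share of their UMIs, these counts were 0 and 112, Car1 itself aside. That split was chosen after seeing the data. By Car1 count Sphk1, the sphingosine kinase gene, went from 56.7 to 185 CPM in control and from 24.3 to 158 CPM in SI. C1qtnf12, a secreted protein gene, went from 199 to 479 CPM and from 62.2 to 360 CPM, Mt2 from 109 to 269 CPM and from 34.3 to 211 CPM, and the claudin gene Cldn13 from 37.1 to 86.6 CPM and from 15.3 to 85.6 CPM. Asb17 and Cachd1 rested on 12 and 9 control and 0 and 1 SI UMIs at low Car1. By count of Car1 UMIs the neutrophil genes S100a9, Ngp, Camp and S100a8 had the highest ratios in this direction, and in SI members 10 cells held 97.7%, 98.4%, 99% and 96.6% of their UMIs.

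The genes with the largest ratios the other way were high at low Car1. Ifitm1, of the interferon list, went from 356 to 35.5 CPM in control and from 729 to 27.8 CPM in SI. The intermediate filament gene Vim went from 611 to 99.5 CPM and from 834 to 103 CPM, and Ctla2a, a protease inhibitor gene, from 148 to 19.9 CPM and from 186 to 15.9 CPM. Nkg7 went from 173 to 27.6 CPM in control and from 52.3 to 4.94 CPM in SI, so its lower SI level was seen at both ends. Tuba8, Csrp3, Pdzph1, Rgs1, Ddit4 and Prkg1 completed the 10. By Car1 share 14 of these 20 genes kept their sign in both libraries. S100a9, Ngp, Camp and S100a8 turned sign in SI, to log2 values of -4.60, -4.65, -4.92 and -4.31, and Cldn13 and Cachd1 stood at -0.06 each in control. Sphk1, Mt2, C1qtnf12 and Asb17 kept their sign at 0.53, 0.40, 0.17 and 0.27 in control and 0.90, 0.92, 0.67 and 0.70 in SI, all short of 2-fold. The 10 genes high at low Car1 ran from -2.85 to -0.80 in control and from -3.51 to -1.77 in SI.

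The 33 members of the deleted library gave few UMIs (912615 in all) and are listed for their levels only. Gata1 stood at 238 CPM (207 to 272), Car2 at 1241 CPM (1170 to 1316) and Tfrc at 92.0 CPM (73.4 to 114). Hbb-bs had 2 UMIs and Mpo 2, and Cd34 had 0. Of the genes with the most extreme SI ratios, Tpm3-rs7 (2.19 CPM), Hist1h4m (13.1 CPM) and Zbtb46 (14.2 CPM) were nearer to SI than to control in deleted members, and Zfp976 (8.77 CPM), Hoxb2 (6.57 CPM) and Serpina3i (0 UMIs) nearer to control, each on 0 to 13 UMIs. Cd79a, limited by the gate to 2 UMIs a cell, had 24 UMIs in these cells against 2 in the 1424 control members, and the B-lineage list summed to 73.4 CPM against 7.19 CPM.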

How the data were processed

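Single-cell transcripts were counted in 4 libraries, of which control Kit+ and Mll3/4SI Kit+ were compared. The deposited matrices hold UMI counts per gene and barcode, not normalized, made by the authors with Cell Ranger 7.1.0 and genome build mm10, per the submitters' processing notes. The authors' cell calling came before deposit. Contig tables, deposited with UMI and read counts, were used only to find barcodes with a contig.

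Kept barcodes had 1000 UMIs or more, 500 genes or more and no more than 10% of UMIs from mitochondrial genes. Raw UMIs of members were summed per library and expressed as CPM. Log2 ratios carried 1 CPM, which understates low genes. Genes were compared at 100 UMIs or more in the library of higher CPM, list genes given a ratio at 20 or more over both. Summed levels of lists include gate genes, which list medians and counts past 2-fold leave out. Poisson, Clopper-Pearson and conditional binomial intervals are exact. No test was made, as each group has 1 library. Named genes were the 12 largest ratios each way, without gate, receptor, mitochondrial, ribosomal protein, numbered or Rik, Xist, Tsix and Y-linked genes, and from each list those past 2-fold, the most abundant and those showing its range. Some genes that meet this rule are not reported here. For Car1 groups they were the 10 largest ratios each way that agree in sign. The members and lists were chosen with earlier results of these data known. A list of 10 genes named for the whole SI library in an earlier look had a median of -0.76, with 2 genes higher and 5 lower past 2-fold, and is no independent support. Ratio steps were tested on simulated data. Doublets were scored with Scrublet in scanpy 1.11.5 and kept. Its own threshold marked 1166 control barcodes (9.81%) but 1 SI barcode and had not worked in SI, so a score of 0.25 was used as an alternative. Each library was scored on its own, so this cut may not mean the same in both. Of 32285 gene identifiers 32235 matched GENCODE M21 (GRCm38), used for positions. Alternatives changed the gate, cell filter, total, pseudocount, count minimum, weighting and cells left out.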

Additional observations from a re-analysis of the deposited data

How the results depend on the processing

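Of the 34 named genes, list medians and member share, those past 2-fold changed sign in 0 cases under up to 14 alternatives each. Their sizes were less stable: of 476 values of named genes, 365 stayed within the gene's main counting interval and 111 did not. Without each gene's highest 1% of cells Camp went from log2 3.42 to 0.65 and Lyz2 from 2.70 to 0.65. The other called genes were recomputed only without their highest 1% of cells, where Cd74, 1 of the 101 higher genes (log2 1.63), stood at -0.52. Medians near 0 did cross it: erythroid regulators (-0.01) and G2/M (0.02) with Klf1 at 5 or more UMIs, the B lineage (-0.02) there and with Car1 at 20 or more, globins (0.03 to 0.06), the red cell membrane (-0.03) gated on gate genes' UMIs scaled to each cell's total and survival genes (0.03) with each cell weighing the same. Isg15 ran from 2.64 to 3.35. No paired analysis was possible because each group has 1 library.

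The carbonic anhydrase median rests on 4 genes. It was -0.32 with Klf1 at 5 or more UMIs, -0.36 gated on scaled UMIs, -0.32 without high doublet scores, -0.35 without members holding mast cell transcripts, -0.33 without those holding 20 or more neutrophil-list UMIs and -0.38 without barcodes found in more than 1 library. The neutrophil median was 1.90 with Klf1 at 5 or more UMIs, 0.05 gated on scaled UMIs, 0.11 without high doublet scores, 0.53 without cells holding neutrophil transcripts and 0.62 without each gene's highest 1% of cells. The monocyte median was 0.04 without high doublet scores and 0.20 without the highest 1%, and the T and NK median, Nkg7 alone, was -2.47 without the latter. Gated on scaled UMIs, the mast cell and basophil median was 1.49, that of the genes named earlier for the whole library -2.01, and the higher genes numbered 60. The interferon median was 1.56 without barcodes found in more than 1 library, the heat shock median -0.02 without cells holding neutrophil transcripts and the metallothionein median -0.44 with each cell weighing the same.

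A pseudocount of 10 CPM gave 46 higher and 10 lower genes and medians of 1.01 for interferon, 0.81 for neutrophil, 0.25 for monocyte, 0.20 for mast cell, -1.62 for T and NK, -0.08 for macrophage and -0.24 for the earlier named genes. A minimum of 30 UMIs gave 171 higher genes, and of 1 UMI 191. Among cells with Klf1 the log2 ratio of the member share was -0.11. Leaving out neutrophil-transcript cells, shared barcodes or each gene's highest cells was added after seeing the data. The cause of each move was not tested. Depth limits low genes: in SI members a UMI is worth 0.076 CPM.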

Other observations

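Counts of genes past 2-fold differed between chromosomes. Of the 42 lower genes 10 lay on chromosome 7, 1.5% of the 668 genes compared there, against 0.455% of all compared genes. Chromosome 12 held 3, 0.929% of 323, and chromosome 11 held 7, 0.885% of 791. Of the 101 higher genes 16 lay on chromosome 7, 2.40% of its genes, and 9 on chromosome 3, 2.05% of 438, against 1.09% of all. In Elane-high cells 17 of 896 genes compared on chromosome 7 were lower, 1.9% against 0.657% of all. There 21 were higher, 2.34% against 1.83% of all, below chromosomes 12 (2.94%), X (2.84%), 1 (2.75%) and 18 (2.38%). These counts were looked at after the values were seen, and no test was made.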
